A study of Rattus norvegicus with 16 samples.

Results

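Osteoarthritic rat knee cartilage that had received hyaluronic acid (HA) together with cells and a drug was set against healthy rat knee cartilage, with 4 libraries in each group and all genes considered. Of the 23552 genes in the table, 14337 were tested, those with an FPKM (read fragments scaled for gene length and library size) of 1 or more in 4 or more of the 16 libraries of the study. All rats were 10 weeks old, and every library was made from total RNA of knee cartilage. The healthy group carries the library name Sham, and the study also holds osteoarthritic cartilage under the library name PBS and osteoarthritic cartilage given a coacervate with cells and a drug, each with 4 libraries. The labels name neither the drug nor the kind of cell, nor the strain, the sex, the time after treatment or how osteoarthritis was brought about. No group received HA, the cells or the drug alone, so the contribution of each and that of the disease cannot be told apart in this comparison. The labels do not say whether replicates are separate animals, and p-values therefore measure the spread between these libraries.

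Hyaluronic acid is a long sugar polymer that fills cartilage matrix and joint fluid, and it is injected into joints as a lubricant and used as a gel to carry cells. Cartilage is built by chondrocytes from collagen II and aggrecan, and in osteoarthritis this matrix is cut by metalloproteinases while the joint lining takes up macrophages and fibrous tissue. Macrophages that carry the lipid receptor Trem2 take up lipid and debris, and they are known from several injured tissues.

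The HA-treated libraries held 44902493 to 48985255 counts, and the healthy libraries 36988722 to 49342607. Col2a1, the main cartilage collagen, lay at 393 to 593 FPKM in HA-treated libraries and 227 to 536 FPKM in healthy ones, so cartilage RNA was present in all 8. Col2a1 was the highest of the cartilage markers read. Acan, the aggrecan core protein, lay at 21.0 to 34.2 FPKM in HA-treated libraries and 13.7 to 31.0 in healthy ones. The lowest was Sox9, a chondrocyte transcription factor, at 1.62 to 2.35 FPKM in HA-treated libraries and 1.63 to 3.43 in healthy ones. The RNA was mixed: haemoglobin genes took 10.6% to 11.7% of the counts in HA-treated libraries and 11.6% to 15.4% in healthy ones, and markers of bone, marrow and muscle were detected in all 8. On the first principal component of the 8 libraries, which held 26.7% of the variance, the HA-treated libraries lay between -27.7 and -9.38 and the healthy ones between 16.6 and 22.3. The 5 genes that mark this comparison, Mmp3, Ccl9, Trem2, Lgals3 and Hes1, had been picked with earlier results of these data known, so their values are not independent evidence.

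HA-treated cartilage had more RNA of a matrix protease, 2 chemokines and 5 of 23 listed lipid-handling macrophage genes than healthy cartilage, and less of Hes1 and Arrdc3. In edgeR's quasi-likelihood test with Benjamini-Hochberg adjustment, with the spread estimated over all 16 libraries, 23 genes passed an adjusted p of 0.05, which is 0.160% of the genes tested. Of these, 21 were higher (0.146%) and 2 were lower (0.0139%). In all 23 the 4 HA-treated values lay on 1 side of the 4 healthy values, which held for 9.83% of all genes tested (5.08% with the HA-treated values above and 4.76% with them below). At an unadjusted p under 0.05 there were 633 higher (4.42%) and 550 lower (3.84%) genes, together 8.25%. In bulk RNA, fewer cells of a type and less RNA per cell cannot be told apart, and this holds for every level below.

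The number of calls differed between settings. With only the 8 libraries compared in the fit, 390 genes passed (2.72%), 197 higher (1.37%) and 193 lower (1.35%), and these held all 23. On the first component of all 16 libraries, osteoarthritic replicates 2 and 3 lay far from the rest, and without both of them 94 genes passed, again with all 23. In the fit of 16, leaving out HA replicates 1, 2 or 3 gave 14, 1 or 0 calls, leaving out healthy replicates 1 to 4 gave 2, 0, 2 and 0, and leaving out coacervate replicates 1, 2 or 3 gave 9, 6 and 37. The fit of the 8 libraries also moved, to between 106 and 480 calls, and 19 to 23 of the 23 genes passed in each of its leave-one-out fits. Counts by gene group are therefore given for both fits, and the 8-library fit was an alternative to the fit of all 16. Each such count is to be read beside the shares over all genes tested, 0.160% in the fit of 16 and 2.72% in that of 8.

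**Figure D1:**
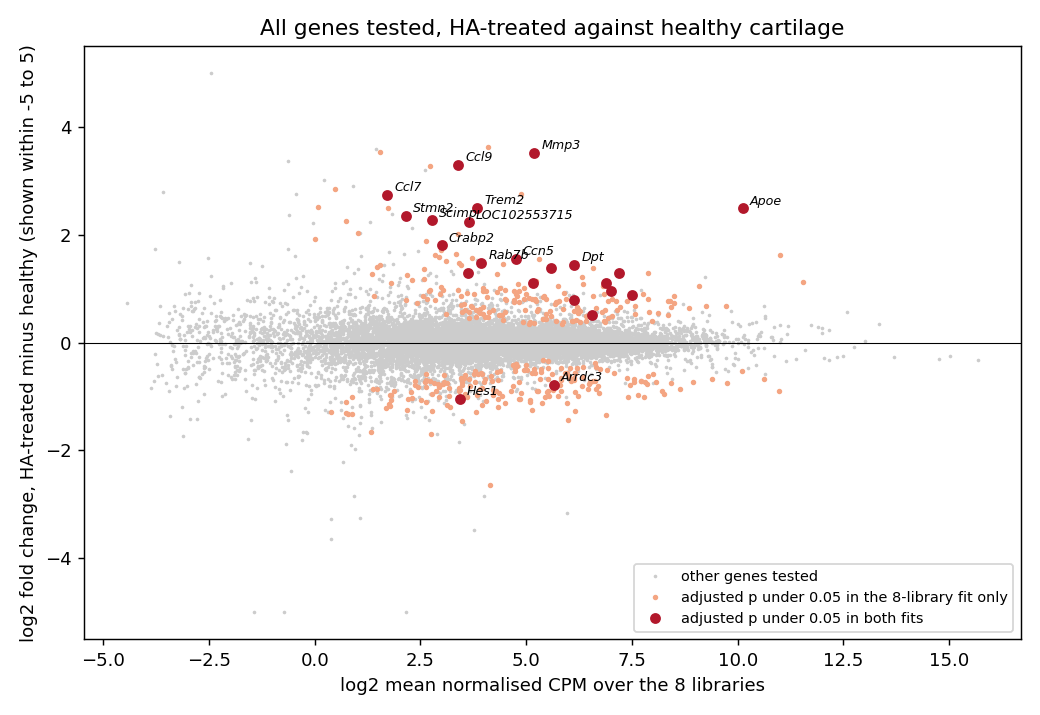
Each point is a gene tested, with the log2 of its mean normalised CPM over the 8 libraries on the x axis and the log2 fold change of HA-treated minus healthy on the y axis. Dark red points are the 23 genes that passed in both fits, light orange points are the others of the 390 that passed when only the 8 libraries were fitted, and grey points are the other genes. The dark red points are 21 above and 2 below the zero line, whereas the light orange points are spread to both sides.

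The promoters of 6 genes are shown as examples of proteases, a chemokine, a macrophage receptor and a Notch target described below. They were picked after the matches were seen, for holding the letters marked, so they do not tie the letters to the changes. They were taken from RefSeq (build GRCr8), from 250 bases before to 50 bases after the annotated start, and each is read 5′ to 3′ on the strand of its gene. Capitals mark the letters TGANTCA, called the AP-1 letters here, where N is any letter. They take in TGAGTCA and TGACTCA, which AP-1 factors are known to bind, and are looser than these. In Hes1 capitals mark the letters TGGGAA, which the Notch partner CSL is known to bind. Mmp10 and Mmp12 did not pass in the fit of 16 libraries and are shown as the neighbours of Mmp3.

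Mmp3 (chr8:12925031-12925330, + strand): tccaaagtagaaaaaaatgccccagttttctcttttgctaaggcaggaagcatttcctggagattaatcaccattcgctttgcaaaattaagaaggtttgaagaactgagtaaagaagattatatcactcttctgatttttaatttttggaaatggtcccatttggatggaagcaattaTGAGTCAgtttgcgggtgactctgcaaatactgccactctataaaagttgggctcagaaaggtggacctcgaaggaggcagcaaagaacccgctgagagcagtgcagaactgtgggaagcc
Mmp12 (chr8:12866402-12866701, + strand): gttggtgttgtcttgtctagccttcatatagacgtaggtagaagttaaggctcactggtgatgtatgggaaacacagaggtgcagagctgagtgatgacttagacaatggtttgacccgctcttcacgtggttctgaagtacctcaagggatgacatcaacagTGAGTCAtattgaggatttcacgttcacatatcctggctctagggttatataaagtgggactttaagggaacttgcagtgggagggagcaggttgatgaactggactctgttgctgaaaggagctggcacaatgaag
Mmp10 (chr8:12974457-12974756, + strand): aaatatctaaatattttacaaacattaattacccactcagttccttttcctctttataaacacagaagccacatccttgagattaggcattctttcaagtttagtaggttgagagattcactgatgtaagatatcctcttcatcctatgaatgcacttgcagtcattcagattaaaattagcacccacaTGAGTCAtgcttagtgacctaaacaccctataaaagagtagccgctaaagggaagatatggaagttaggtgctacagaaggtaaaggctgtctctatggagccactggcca
Ccl7 (chr10:67513845-67514144, + strand): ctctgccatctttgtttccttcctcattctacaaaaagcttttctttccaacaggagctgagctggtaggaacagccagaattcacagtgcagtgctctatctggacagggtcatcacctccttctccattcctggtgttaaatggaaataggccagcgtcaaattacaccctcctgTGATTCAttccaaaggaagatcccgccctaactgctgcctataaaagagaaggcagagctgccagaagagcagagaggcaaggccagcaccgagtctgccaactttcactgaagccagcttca
Trem2 (chr9:20151730-20152029, - strand): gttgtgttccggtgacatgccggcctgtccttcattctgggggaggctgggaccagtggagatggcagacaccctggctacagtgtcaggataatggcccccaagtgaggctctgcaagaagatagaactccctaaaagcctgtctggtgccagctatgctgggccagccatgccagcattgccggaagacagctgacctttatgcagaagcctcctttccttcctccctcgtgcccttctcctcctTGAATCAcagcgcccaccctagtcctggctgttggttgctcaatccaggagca
Hes1 (chr11:84212996-84213295, - strand): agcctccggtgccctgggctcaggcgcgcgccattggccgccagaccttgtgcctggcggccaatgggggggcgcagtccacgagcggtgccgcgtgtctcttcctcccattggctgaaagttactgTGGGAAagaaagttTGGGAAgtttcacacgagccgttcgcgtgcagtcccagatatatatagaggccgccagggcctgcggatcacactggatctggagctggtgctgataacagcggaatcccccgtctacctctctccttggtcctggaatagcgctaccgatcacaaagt

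The AP-1 letters began at position -71 in Mmp3, -87 in Mmp12, -61 in Mmp10, -73 in Ccl7 and -3 in Trem2, counted from the annotated start. Mmp3, Mmp12 and Mmp10 held TGAGTCA, whereas Ccl7 held TGATTCA and Trem2 held TGAATCA, which meet only the looser TGANTCA. The AP-1 letters also began at -66 in Mmp13 and -80 in Mmp7, which lie in the same row of genes as Mmp3 and did not pass in either fit. Ccl9 and Apoe, which were among the larger rises, held no AP-1 letters in this window. In Hes1 the CSL letters began at -123 and -109. Of the 23 genes called, 15 were in the promoter table, and the AP-1 letters were in 3 of them (Mmp3, Ccl7 and Trem2), against 7.33% of all 27457 promoters of 300 bases. The CSL letters were in 7 of the 15, against 25.1% of all promoters, and the letters searched for NF-kB, GGG and CC with any 5 letters between them, were in 8 of the 15, against 48.5%. Both strands were searched, and matches of different motifs could overlap. A match is a run of letters and not a binding site.

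Mmp3, or stromelysin 1, cuts aggrecan and other matrix proteins and activates other metalloproteinases. In HA-treated replicates 1 to 4 it had 36.8, 134, 81.7 and 14.7 normalised CPM (counts scaled to a common library size), against 5.00, 7.34, 5.73 and 5.33 in healthy replicates 1 to 4. Every HA-treated library was above every healthy one, and the HA-treated libraries differed among themselves far more than the healthy ones. The mean was 66.9 ± 52.9 normalised CPM in HA-treated cartilage and 5.85 ± 1.04 in healthy cartilage (SD, n = 4 each). The log2 fold change was 3.51 ± 0.65 (SE), or 11.4-fold, with an adjusted p of 0.0453 by edgeR's quasi-likelihood test.

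Mmp3 lies in a row of metalloproteinase genes on rat chromosome 8 (5676665 to 5698579 on the plus strand, build rn6), and its neighbours were read in the same libraries. Mmp12, the elastase of macrophages, lies at 5606592 to 5616493 and had 27.4, 63.3, 23.6 and 11.4 normalised CPM in HA-treated replicates 1 to 4, against 6.52, 0.954, 0.671 and 2.06 in healthy replicates 1 to 4. In healthy cartilage Mmp12 averaged 1.23 FPKM, near the filter on low values, with 305, 50, 26 and 96 counts in replicates 1 to 4. Its log2 fold change of 3.62 ± 0.69 was larger than that of Mmp3, but its adjusted p of 0.0542 was the first outside the threshold; it passed in the fit of the 8 libraries (adjusted p = 0.0267). Mmp10, or stromelysin 2, lies at 5734348 to 5742243 and had 6.74, 23.6, 14.7 and 2.56 normalised CPM in HA-treated libraries, against 1.03, 1.62, 1.16 and 1.11 in healthy ones. It passed only in the fit of the 8 libraries (log2 fold change 3.27 ± 0.67, adjusted p = 0.0740 in the fit of 16 and 0.0179 in that of 8), and its healthy libraries held just 45 to 85 counts. In Mmp3 and Mmp10 HA replicate 2 was the highest, followed by replicates 3, 1 and 4.

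The other 3 tested genes of the row passed in neither fit, and Mmp1b, Mmp20 and Mmp27 were not tested. Mmp13, the collagenase of hypertrophic and osteoarthritic chondrocytes, had 631 to 734 normalised CPM in HA-treated libraries and 696 to 1224 in healthy ones, and its log2 fold change of -0.50 ± 0.23 did not pass (adjusted p = 0.582). For Mmp8, the neutrophil collagenase, the log2 value was 0.18 ± 0.12 (adjusted p = 0.819). Mmp7, or matrilysin, was at 16 to 89 counts in HA-treated libraries and 6 to 13 in healthy ones and did not pass (2.37 ± 0.98, adjusted p = 0.526), although its HA-treated values all lay above its healthy values. In the list of stromelysins and elastase, which holds Mmp3, Mmp7, Mmp10 and Mmp12, 1 of 4 rose in the fit of 16 and 3 of 4 in the fit of 8. Mmp7 and Mmp10 averaged under 1 FPKM in healthy cartilage and reached the filter on low values in other groups, so these counts are a description of the 4 genes.

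Of the other metalloproteinases, Adamts proteases and their inhibitors, 4 of 18 passed in the fit of 8 and 0 in the fit of 16. Over all genes tested, 2.72% passed in the fit of 8 and 0.160% in that of 16. Mmp2, a gelatinase made by fibroblasts, had 317, 397, 392 and 227 normalised CPM in HA-treated libraries and 141, 146, 158 and 102 in healthy ones. It did not pass in the fit of 16 (log2 fold change 1.29 ± 0.29, adjusted p = 0.107) and passed in the fit of 8 (adjusted p = 0.00994). Mmp19, another metalloproteinase, and Mmp2 were the 2 of 9 collagenases, gelatinases and related proteases that rose in the fit of 8. Adamts15, a protease of proteoglycans, and Timp1, an inhibitor of metalloproteinases, were the 2 of 9 aggrecanases and inhibitors that rose in it. Adamts15 averaged 0.645 FPKM in healthy cartilage, under the filter on low values. Adamts5, the aggrecanase that drives cartilage loss in mice, had 17.6 ± 1.61 normalised CPM in HA-treated cartilage and 14.6 ± 0.995 in healthy cartilage (SD, n = 4 each). The 4 HA-treated values of Adamts5 lay above the 4 healthy values, but it passed in neither fit (log2 fold change 0.26, 95% interval -0.27 to 0.79).

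Chemokines of the CC family draw monocytes and other white blood cells into tissue. Ccl9, which acts on the receptor Ccr1 in mice, had 10.5, 39.8, 16.9 and 8.41 normalised CPM in HA-treated libraries, against 3.76, 0.820, 1.24 and 1.86 in healthy ones. All HA-treated values were above all healthy values, with HA replicate 2 the highest, and the log2 fold change was 3.30 ± 0.56 (adjusted p = 0.0411, edgeR quasi-likelihood test). Ccl7, a monocyte attractant, had 3.49, 7.62, 6.04 and 5.46 normalised CPM in HA-treated libraries, against 0.705, 0.648, 0.749 and 1.26 in healthy ones. Its log2 fold change was 2.74 ± 0.48 (adjusted p = 0.0411), resting on 173 to 380 counts in HA-treated libraries and 29 to 59 in healthy ones. Ccl7 averaged 0.865 FPKM in healthy cartilage, under the filter on low values, so its test also rested on other groups reaching that filter. Ccl7 lies at 69423086 to 69424979 on chromosome 10 (rn6), next to Ccl2 at 69412017 to 69413870. Ccl2, the main monocyte attractant of the family, had 10.8, 23, 19.6 and 14.1 normalised CPM in HA-treated libraries and 2.48, 1.98, 4.49 and 7.69 in healthy ones, and it passed only in the fit of the 8 libraries (log2 fold change 2.02 ± 0.47, adjusted p = 0.112 in the fit of 16 and 0.0267 in that of 8).

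Of the 13 CC chemokines and receptors tested, 2 rose in the fit of 16 and 3 in the fit of 8, and the median log2 fold change was 0.39. The shares of all genes tested that rose were 0.146% in the fit of 16 and 1.37% in that of 8. Ccl5, which draws T cells, had 0.993 to 2.48 normalised CPM in HA-treated libraries and 1.26 to 6.33 in healthy ones, and these ranges overlapped. Of the 18 inflammatory cytokines and receptors, 0 passed in the fit of 16 and 1 rose in the fit of 8. That was Il1rn, the natural blocker of the interleukin 1 receptor, with 51.0, 60.6, 60.1 and 48.8 normalised CPM in HA-treated libraries and 35.0, 26.3, 25.4 and 35.1 in healthy ones. Il1b itself had 14.8 ± 3.96 normalised CPM in HA-treated cartilage and 14.2 ± 4.52 in healthy cartilage (SD, n = 4 each), a log2 difference of 0.06 with a 95% interval of -0.62 to 0.74.

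**Figure D2:**
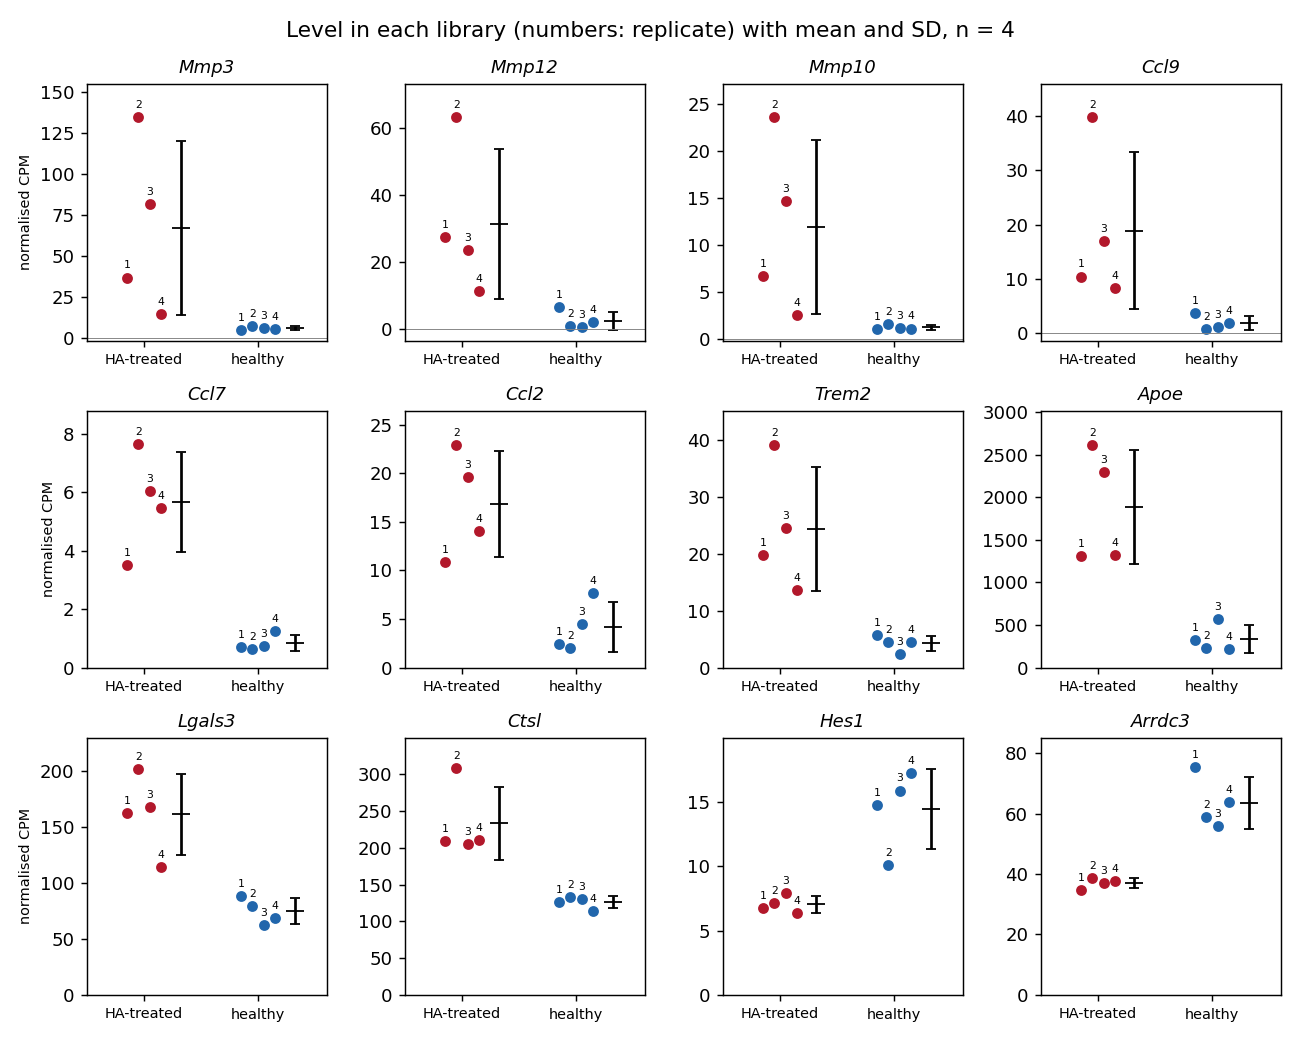
Each panel gives 1 gene, with normalised CPM on the y axis, the 4 HA-treated libraries on the left and the 4 healthy libraries on the right; numbers are replicates, and bars show the mean and SD. All 12 genes are separated between the groups, HA replicate 2 is the highest in each of the 10 genes that are higher in HA-treated cartilage, and Mmp12, Mmp10 and Ccl2 are shown although they did not pass in the fit of 16 libraries.

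In the fit of 16, lipid-handling genes of macrophages held the largest number of calls of any list. Of 23 such genes, 5 rose in it and 6 in the fit of 8, none fell in either, and the median log2 fold change was 0.45. Over all genes tested, 0.146% rose in the fit of 16 and 1.37% in that of 8. The list was chosen with earlier results of these data known, and it holds the markers Trem2 and Lgals3, so its rank among the lists is not independent evidence. Trem2, a receptor for lipids and lipoproteins on macrophages, lies at 14611561 to 14618013 on chromosome 9 (rn6). It had 19.8, 39.2, 24.6 and 13.7 normalised CPM in HA-treated replicates 1 to 4, against 5.70, 4.48, 2.45 and 4.50 in healthy replicates 1 to 4. The lowest HA-treated library was above the highest healthy one, and the log2 fold change was 2.50 ± 0.33, or 5.67-fold (adjusted p = 0.0158, edgeR quasi-likelihood test), the smallest adjusted p of all genes. Trem2 passed in 28 of 32 settings, counting the one reported here, more than any other of the 23.

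Apoe, a lipid carrier that Trem2 binds, was the most abundant of the genes that passed. It had 1313, 2619, 2292 and 1326 normalised CPM in HA-treated libraries, against 322, 227, 574 and 222 in healthy ones (log2 fold change 2.49 ± 0.36, adjusted p = 0.0258). Lgals3, or galectin 3, a sugar-binding protein of activated macrophages, had 162, 202, 168 and 114 normalised CPM in HA-treated libraries, against 88.3, 79.8, 62.8 and 68.9 in healthy ones (1.11 ± 0.19, adjusted p = 0.0411). The groups were separate in both, with replicates 1 and 4 at the low end of the HA-treated group for Apoe and replicate 4 alone for Lgals3. Fabp5, which carries fatty acids inside cells, had 35.1, 69.7, 51.6 and 38.6 normalised CPM in HA-treated libraries and 20.3, 25.1, 21.6 and 23.3 in healthy ones (1.11 ± 0.21, adjusted p = 0.0489).

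The lysosomal protease Ctsl, or cathepsin L, had 209, 308, 205 and 211 normalised CPM in HA-treated libraries, against 127, 133, 131 and 114 in healthy ones (0.89 ± 0.13, adjusted p = 0.0258). Replicate 2 stood above the other 3 HA-treated libraries, which lay close together. In the list of 35 cathepsin and lysosome genes, 1 rose in the fit of 16 and 2 in the fit of 8 (Ctsl and Cd63), with a median log2 fold change of 0.22 and 28 of 35 above 0, beside 50.4% of all genes tested. Ctss, or cathepsin S, which trims antigens in phagocytes, passed in neither fit (0.88 ± 0.20, adjusted p = 0.107), although its groups did not overlap. Gpnmb, a glycoprotein of lipid-loaded macrophages, had 839 ± 259 normalised CPM in HA-treated cartilage and 359 ± 157 in healthy cartilage (SD, n = 4 each) and passed in neither fit.

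The next 6 of the 21 rises belonged to none of the gene lists. Crabp2, Pdlim4, Stmn2 and LOC102553715, described further below, were outside the lists as well. Scimp, an adaptor in antigen-presenting cells, had 7.35, 21.3, 9.20 and 7.16 normalised CPM in HA-treated libraries and 2.76, 1.72, 2.56 and 2.31 in healthy ones. Rab7b, a small GTPase of late endosomes, had 16.3, 33.3, 21.6 and 18.5 normalised CPM in HA-treated libraries and 7.07, 8.20, 7.18 and 9.83 in healthy ones. Their log2 fold changes were 2.27 ± 0.40 for Scimp and 1.47 ± 0.27 for Rab7b, with replicate 2 the highest in both. Smpdl3a, a phosphodiesterase that macrophages secrete, and Dpp7, a lysosomal peptidase, rose by 0.95 ± 0.16 and 0.51 ± 0.10 on the log2 scale. LOC108348047, annotated as a low affinity receptor for the constant part of immunoglobulin G, rose by 0.80 ± 0.15, but it lies inside the bounds of Fcgr2a on the same strand, so how reads were divided between them is uncertain. RGD1559482, annotated as similar to immunoglobulin superfamily member 7, rose by 1.38 ± 0.21.

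General macrophage markers gave smaller values. Of 23 macrophage identity genes, 0 passed in the fit of 16, where 8 had all HA-treated values above all healthy values and 1 had them below, and 3 rose in the fit of 8 (Cd14, Folr2 and Fcgr2a). Their median log2 fold change was 0.13. Over all genes tested, 5.08% had all HA-treated values above all healthy values and 4.76% had them below, and 1.37% rose in the fit of 8. Csf1r, the growth factor receptor of macrophages, had 274 ± 37.0 normalised CPM in HA-treated cartilage and 256 ± 14.2 in healthy cartilage (SD, n = 4 each). Cd163, a scavenger receptor of resident macrophages, had 123 ± 30.1 normalised CPM in HA-treated cartilage and 165 ± 42.1 in healthy cartilage, and neither gene passed. The summed level of the macrophage list was 1915 to 2329 normalised CPM in HA-treated libraries and 1681 to 2236 in healthy ones, ranges that overlap, with no marker of the list at 0 in all 8; its part in the rises of Trem2 and its neighbours on the list was not tested.

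Complement genes mark and clear debris and are made by macrophages and fibroblasts. C1s, the protease that starts the classical pathway, had 178, 276, 218 and 162 normalised CPM in HA-treated libraries, against 110, 89.3, 74.4 and 69.1 in healthy ones (log2 fold change 1.28 ± 0.24, adjusted p = 0.0487). All HA-treated libraries were above all healthy ones. Of 17 complement genes, 1 rose in the fit of 16 and 5 in the fit of 8, with a median of 0.40. The other 4 were C1r, the partner of C1s, the receptor C5ar1, and C4a and C4b, which are near copies of each other and whose reads may have been split between them. C1qa, a subunit of the recognition complex of the same pathway, had a log2 fold change of -0.02 and did not pass. Over all genes tested, 0.146% rose in the fit of 16 and 1.37% in that of 8.

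Among genes of the fibrous matrix, 3 were called in the fit of 16, and they were put together here after the calls were seen. Dpt, or dermatopontin, which binds decorin in connective tissue, had 96.5, 117, 112 and 86.6 normalised CPM in HA-treated libraries, against 29.3, 48.4, 41.3 and 32.7 in healthy ones (log2 fold change 1.44 ± 0.26, adjusted p = 0.0453). Ccn5, a matricellular protein that lacks the C-terminal domain of its family, had 37.0, 51.3, 45.7 and 26.6 normalised CPM in HA-treated libraries and 15.6, 10.5, 15.1 and 13.6 in healthy ones (1.55 ± 0.24, adjusted p = 0.0258). LOC102553715, annotated as like the elastic fibre protein microfibril-associated glycoprotein 4, had 15.2, 22.3, 24.0 and 20.6 normalised CPM in HA-treated libraries and 4.91, 3.81, 5.19 and 3.62 in healthy ones (2.23 ± 0.40, adjusted p = 0.0448). Mfap4, the gene it is named after, had 10.9 ± 5.05 normalised CPM in HA-treated cartilage and 1.19 ± 1.32 in healthy cartilage (SD, n = 4 each) and passed in neither fit; how the authors' counting divided reads between the pair is not given in the sources used here.

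Crabp2, which carries retinoic acid to the nucleus, had 10.2, 17.0, 13.3 and 9.31 normalised CPM in HA-treated libraries and 4.23, 4.02, 3.61 and 2.42 in healthy ones (1.80 ± 0.32, adjusted p = 0.0411). These values are of the entry ENSRNOG00000022101. The symbol is shared with another entry that was not among the 23, and how reads were divided between them is not given. Pdlim4, a protein of actin fibres, had 14.2, 22.1, 19.6 and 13.6 normalised CPM in HA-treated libraries and 7.43, 6.58, 6.27 and 8.12 in healthy ones (1.29 ± 0.21, adjusted p = 0.0300). Stmn2, a regulator of microtubules best known from neurons, had 3.37, 9.95, 9.80 and 6.65 normalised CPM in HA-treated libraries and 1.88, 1.75, 1.01 and 1.16 in healthy ones (2.35 ± 0.37, adjusted p = 0.0258). Stmn2 averaged 0.62 FPKM in healthy cartilage, under the filter on low values, and reached that filter in other groups. The groups were separate in all of these. Over the 21 rises, the highest HA-treated library was replicate 2 in 20 genes and replicate 3 in 1, and the lowest was replicate 4 in 13, replicate 1 in 7 and replicate 3 in 1. Without HA replicate 2, 22 of the 23 genes still passed when the 8 libraries alone were fitted, but 1 gene did so in the fit of 16.

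Of 25 fibroblast genes, 1 rose in the fit of 16 and 8 in the fit of 8, with a median log2 fold change of 0.52. The other 7 were Mfap5, Sfrp2, Crip1, S100a4, Vim, Pdgfra and Clec3b. The shares of all genes tested that rose were 0.146% in the fit of 16 and 1.37% in that of 8. Of 14 fibrous collagens, 0 passed in the fit of 16 and 7 rose in the fit of 8. All 14 had a log2 fold change above 0, beside 50.4% of all genes tested, with a median of 0.64. Col3a1, the collagen of loose and healing tissue, had 2953, 3306, 3953 and 2101 normalised CPM in HA-treated libraries, against 978, 1099, 1212 and 708 in healthy ones. The lowest HA-treated value was above the highest healthy value, and Col3a1 passed in the fit of 8 (adjusted p = 0.00734) but not in that of 16 (log2 fold change 1.62 ± 0.37, adjusted p = 0.110). The other collagens that rose in the fit of 8 were Col5a3, Col6a1, Col6a2, Col6a6, Col14a1 and Col15a1. Col6a6 averaged 0.65 FPKM in healthy cartilage, under the filter on low values. For these 7 collagens the highest HA-treated library was replicate 3 in 6 genes and the lowest was replicate 4 in 7, whereas replicate 2 was the highest in 20 of the 21 rises and replicate 4 the lowest in 13; this difference was not tested.

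Col1a1, the main collagen of bone and tendon, had 9520 to 14824 normalised CPM in HA-treated libraries and 7751 to 12432 in healthy ones, and it passed in neither fit (log2 fold change 0.35, 95% interval -0.34 to 1.04). Fn1, or fibronectin, had 4291, 4139, 5444 and 2525 normalised CPM in HA-treated libraries and 1917, 1936, 2114 and 1586 in healthy ones and passed in the fit of 8 (1.12 ± 0.41, adjusted p = 0.453 in the fit of 16 and 0.0207 in that of 8). Of 17 matricellular genes, 1 rose in the fit of 16 and 4 in the fit of 8, with a median of 0.48. Over all genes tested, 0.146% rose in the fit of 16 and 1.37% in that of 8. Of 9 annexins, which bind lipid membranes, 3 rose in the fit of 8 (Anxa2, Anxa4 and Anxa5), and of 15 galectins and S100 proteins 1 rose in the fit of 16 and 5 in the fit of 8. Tendon and ligament markers summed to 1963 to 2730 normalised CPM in HA-treated libraries and 1491 to 1826 in healthy ones, without overlap, and fibroblast markers to 2932 to 3801 in HA-treated libraries and 2683 to 2997 in healthy ones; their part in the matrix values was not tested.

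**Figure D3:**
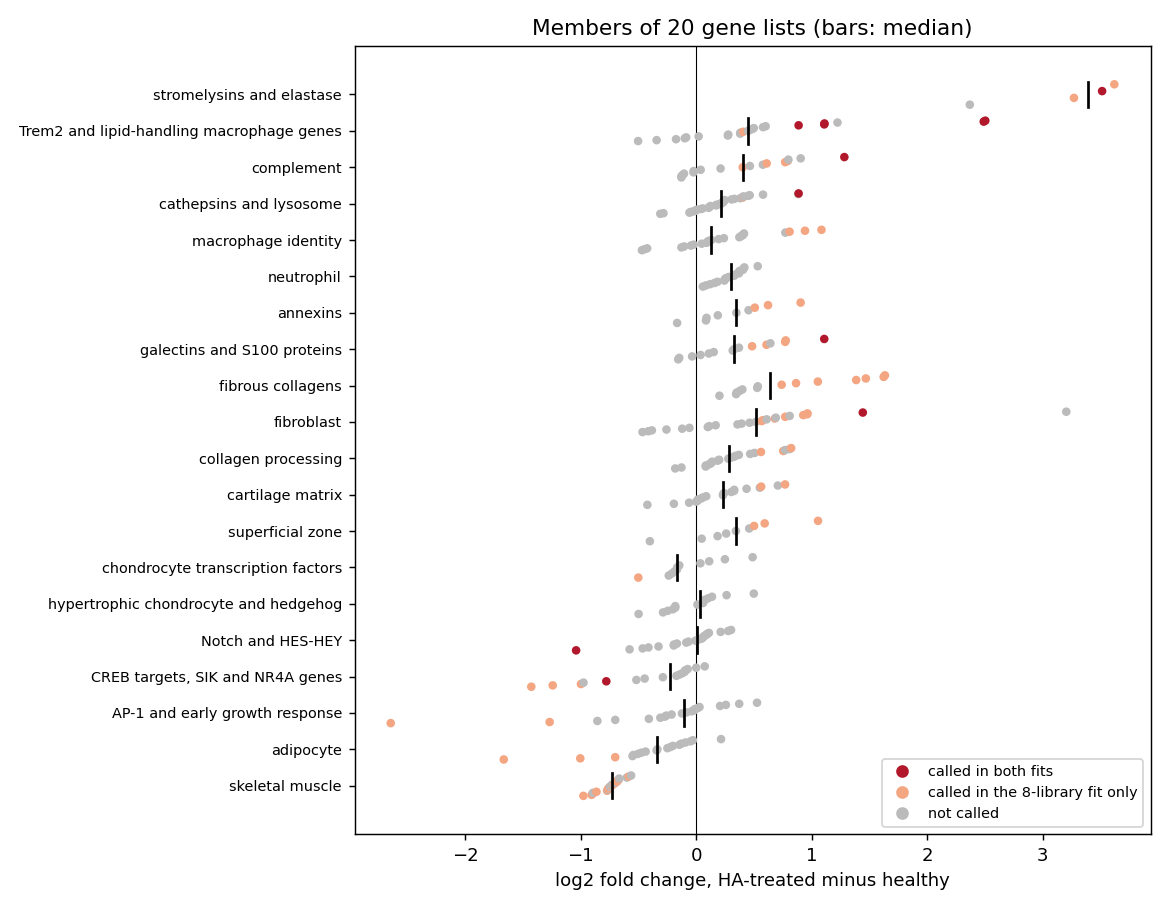
Each point is a tested member of 1 of 20 gene lists, with the log2 fold change of HA-treated minus healthy on the x axis and the list on the y axis; black bars are medians. Dark red points passed in both fits, light orange points only in the fit of the 8 libraries and grey points in neither. All 4 stromelysin and elastase genes and all 14 fibrous collagens are right of 0, and all 21 skeletal muscle genes are left of 0.

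Genes of the cartilage matrix itself gave smaller values. Col2a1 had 2080, 2015, 3069 and 1989 normalised CPM in HA-treated libraries, against 1605, 1819, 2658 and 1204 in healthy ones, and the groups overlapped. Its log2 fold change of 0.33 had a 95% interval of -0.35 to 1.01, and that of Acan, the aggrecan core protein, was 0.23 with an interval of -0.52 to 0.98. Sox9, the transcription factor of chondrocytes, had a value of -0.21 (-0.91 to 0.49), and Col10a1, the collagen of hypertrophic cartilage, had 0.06 (-0.93 to 1.05). None of these 4 genes passed in either fit.

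Comp and Prg4 had larger differences than Col2a1. Comp, a pentameric protein that links collagen fibrils, had 367, 450, 489 and 338 normalised CPM in HA-treated libraries and 219, 271, 275 and 199 in healthy ones. It passed only in the fit of 8 (log2 fold change 0.77 ± 0.22, adjusted p = 0.266 in the fit of 16 and 0.0242 in that of 8). Prg4, or lubricin, the lubricant of the cartilage surface and joint lining, had 754, 737, 917 and 516 normalised CPM in HA-treated libraries, against 422, 342, 286 and 358 in healthy ones. It too passed only in the fit of 8 (1.05 ± 0.37, adjusted p = 0.415 in the fit of 16 and 0.0135 in that of 8). Of 20 cartilage matrix genes, 0 passed in the fit of 16 and 2 rose in the fit of 8 (Comp and Prelp), with a median of 0.23. Of 9 superficial zone genes, 0 passed in the fit of 16 and 3 rose in the fit of 8 (Prg4, Abi3bp and Cilp), with a median of 0.34. The share of all genes tested that rose in the fit of 8 was 1.37%. The summed cartilage markers were 3277 to 4804 normalised CPM in HA-treated libraries and 2054 to 4226 in healthy ones, with the highest in replicate 3 of each group. Markers of osteoblasts and osteocytes summed to 17176 to 22771 normalised CPM in HA-treated libraries and 14463 to 20818 in healthy ones.

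Among enzymes and binders of hyaluronan and chondroitin sulphate, 2 of 24 rose in the fit of 8 and 0 passed in the fit of 16. Over all genes tested, 1.37% rose in the fit of 8. Tnfaip6, a protein that binds hyaluronan and is induced by inflammation, had 6.84, 17.4, 9.74 and 4.77 normalised CPM in HA-treated libraries and 2.61, 2.56, 2.58 and 2.74 in healthy ones (log2 fold change 1.89 ± 0.49, adjusted p = 0.178 in the fit of 16 and 0.0201 in that of 8). Has1, a hyaluronan synthase, had 8.42, 9.21, 7.28 and 5.53 normalised CPM in HA-treated libraries and 4.23, 3.45, 3.98 and 5.07 in healthy ones (0.86 ± 0.38, adjusted p = 0.566 in the fit of 16 and 0.0408 in that of 8). HA-treated values of both lay above the healthy values, and in Has1 the gap between the groups was small.

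Hes1, a repressor that Notch receptors switch on, was the larger of the 2 falls. It lies at 74312806 to 74315248 on chromosome 11 (rn6) and had 6.78, 7.18, 7.90 and 6.34 normalised CPM in HA-treated replicates 1 to 4, against 14.7, 10.1, 15.9 and 17.3 in healthy replicates 1 to 4. All HA-treated libraries were below all healthy ones and lay closer together (7.05 ± 0.661 in HA-treated and 14.5 ± 3.11 in healthy cartilage, SD, n = 4 each). The log2 fold change was -1.04 ± 0.19 (adjusted p = 0.0448, edgeR quasi-likelihood test). Other genes of the Notch pathway did not pass in either fit: of 22 tested, Hes1 was the only fall, the median was 0.01, and 11 were above and 11 below 0. Heyl, another Notch target, had -0.58 ± 0.26, and Rbpj, which encodes CSL, had 0.30 ± 0.18.

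Arrdc3, an arrestin-like protein that directs receptors to breakdown, had 34.8, 38.6, 37.1 and 37.8 normalised CPM in HA-treated libraries, against 75.3, 59.0, 55.9 and 63.9 in healthy ones (log2 fold change -0.78 ± 0.14, adjusted p = 0.0453). The HA-treated libraries were almost level and all below the healthy ones. It belonged to a list of 16 targets of the cyclic AMP factor CREB with SIK kinases and NR4A receptors, of which 1 fell in the fit of 16 and 4 in the fit of 8, with a median of -0.23. The other 3 were Per1, a clock gene, with -1.43 ± 0.37, Nr4a1, a nuclear receptor induced within minutes of a stimulus, with -1.24 ± 0.48, and Sik1, a kinase of the CREB loop, with -1.0 ± 0.23. Per1 had 49.3, 21.9, 34.0 and 33.5 normalised CPM in HA-treated libraries and 114, 97.6, 78.9 and 82.9 in healthy ones. Of 17 circadian clock genes, Per1 was the only one to pass in the fit of 8. The shares of all genes tested that fell were 0.0139% in the fit of 16 and 1.35% in that of 8.

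Of 20 early response genes, 0 passed in the fit of 16 and 2 fell in the fit of 8, with a median of -0.10. Over all genes tested, 1.35% fell in the fit of 8. Fosb, a subunit of AP-1, had 2.68, 7.54, 4.63 and 4.75 normalised CPM in HA-treated libraries and 25.5, 8.14, 48.0 and 41.1 in healthy ones, and healthy replicate 2 lay just above the HA-treated values (log2 fold change -2.64 ± 0.96, adjusted p = 0.442 in the fit of 16 and 0.0209 in that of 8). Egr1, an early growth response factor, had 32.5, 51.7, 48.9 and 33.3 normalised CPM in HA-treated libraries and 120, 47.7, 110 and 123 in healthy ones, and healthy replicate 2 lay within the HA-treated range (-1.27 ± 0.39, adjusted p = 0.313 in the fit of 16 and 0.0374 in that of 8). Tfpi, an inhibitor of blood clotting, was the next named gene among the falls and did not pass (-0.48 ± 0.10, adjusted p = 0.0789).

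Skeletal muscle genes were lower as a list in HA-treated cartilage. Of 21 tested, all had a log2 fold change below 0 (50.4% of all genes tested lay above 0), between -0.98 and -0.56, with a median of -0.73. In the fit of 16, 0 passed, and in the fit of 8, 13 fell, beside 1.35% of all genes tested. Myh4, a heavy chain of fast muscle myosin, had 1498, 1474, 1286 and 1362 normalised CPM in HA-treated libraries, against 3500, 2464, 2001 and 2555 in healthy ones (-0.90 ± 0.40, adjusted p = 0.568 in the fit of 16 and 0.0167 in that of 8). Mb, or myoglobin, had 189, 188, 191 and 234 normalised CPM in HA-treated libraries and 317, 371, 298 and 344 in healthy ones. The groups were separate in both genes and in 12 of the 21, beside 4.76% of all genes tested with the HA-treated values all below. The summed muscle markers were 5493 to 6682 normalised CPM in HA-treated libraries and 8134 to 12229 in healthy ones.

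Adipocyte genes were also lower, with 18 of 19 below 0 (50.4% of all genes tested lay above 0) and a median of -0.34. In the fit of 16, 0 were called. In the fit of 8, where 1.35% of all genes tested fell, there were 3 falls. These were Lep, the hormone leptin, Plin1, which coats fat droplets, and Adipoq, the hormone adiponectin. Lep averaged 0.32 FPKM in HA-treated cartilage, under the filter on low values. Plin1 had 29.8, 27.0, 27.9 and 31.5 normalised CPM in HA-treated libraries, against 50.5, 54.8, 53.8 and 73.7 in healthy ones, a log2 fold change of -1.0 ± 0.34 (adjusted p = 0.375 in the fit of 16 and 0.00665 in that of 8). The summed adipocyte markers were 923 to 1065 normalised CPM in HA-treated libraries and 1083 to 1307 in healthy ones, without overlap, with Ucp1 at 0 in all 8 libraries. All 18 neutrophil genes tested had a log2 fold change above 0, beside 50.4% of all genes tested, with a median of 0.30 and 0 passed in either fit. Neutrophil sums were 12093 to 14141 normalised CPM in HA-treated libraries and 9783 to 11798 in healthy ones. How far tissue other than cartilage entered the muscle, fat and marrow values was not tested. Of the 56 lists, 19 had no member called in either fit. Beside neutrophil genes these were bone and osteoclast markers, B cells, T and NK cells, platelets, red cell genes and haemoglobin, hypertrophic cartilage, the IGF axis, interferon response, prostaglandin and nitric oxide enzymes, antioxidant, senescence, proliferation, cholesterol, oxidative phosphorylation, ribosomal protein and secretory pathway genes. Uneven signs were not particular to the lists described. Below 0 were 15 of 16 platelet and 17 of 21 endothelial genes. Above 0 were 20 of 22 collagen processing genes, 31 of 34 secretory pathway genes and 60 of 66 ribosomal protein entries.

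**Figure D4:**
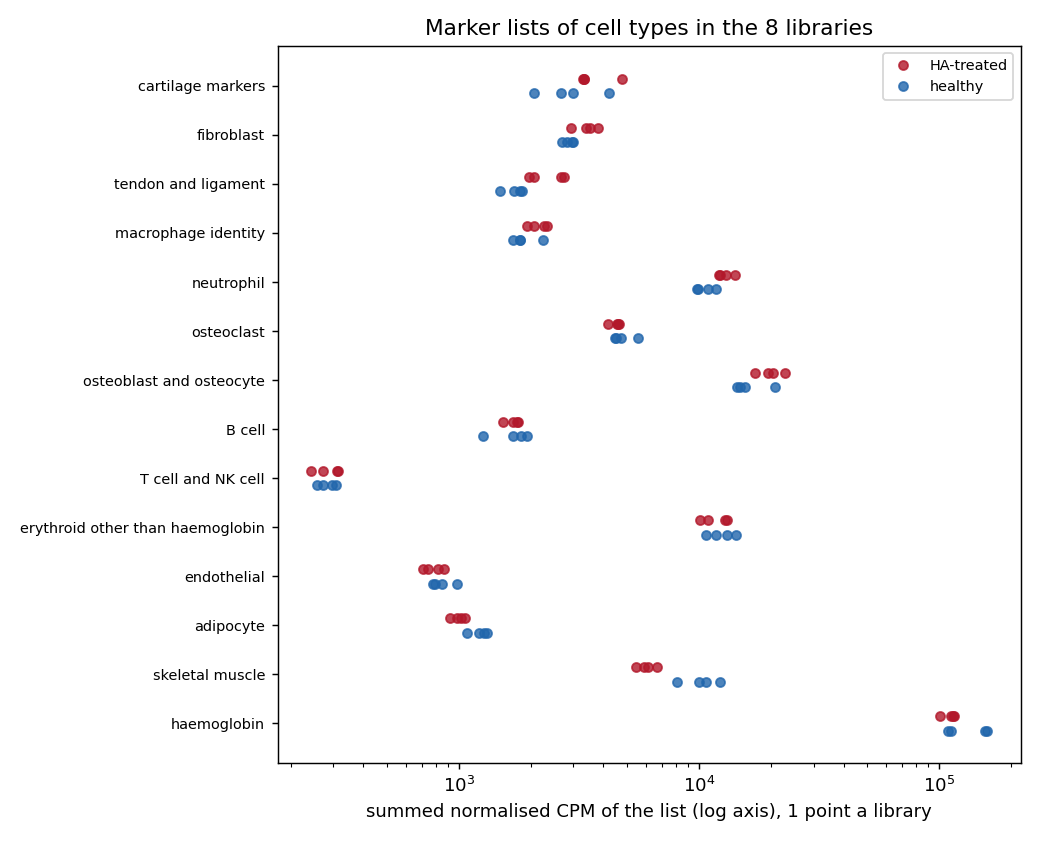
Each point is a library, with the summed normalised CPM of a marker list on the x axis (log scale) and the list on the y axis; HA-treated libraries are drawn above healthy ones. The groups are separate for skeletal muscle and adipocyte markers, which are lower in HA-treated cartilage, and for neutrophil and tendon markers, which are higher, and they overlap for cartilage, macrophage and haemoglobin lists.

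The 23 genes were then read beside the other 2 disease groups. HA-treated minus osteoarthritic and osteoarthritic minus healthy share libraries with the comparison above, so the values are placed side by side and not as separate support. Between HA-treated and osteoarthritic cartilage edgeR's quasi-likelihood test called 0 of 14337 genes (0%), with 909 at an unadjusted p under 0.05 (6.34%), while DESeq2 called 8, limma on log2(FPKM + 1) or log2(FPKM + 0.1) called 1 each, and voom called 1. For the 23 genes the log2 difference of HA-treated minus osteoarthritic lay between -0.27 and 0.58, and the smallest adjusted p was 0.789. The 95% intervals of these differences reached from -1.21 to 1.66 at their widest, so differences of that size lie within the error of these libraries. Osteoarthritic minus healthy ranged from 0.53 to 3.49 on the log2 scale in the 21 rises.

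For Mmp3 the log2 value was 3.51 for HA-treated minus healthy, 3.49 for osteoarthritic minus healthy and 0.02 ± 0.58 for HA-treated minus osteoarthritic. For Trem2 these were 2.50, 2.33 and 0.17 ± 0.31, for Apoe 2.49, 2.31 and 0.18 ± 0.34, and for Lgals3 1.11, 1.11 and 0.00 ± 0.19. For Hes1 they were -1.04, -0.81 and -0.23 ± 0.19, and Hes1 was the 1 gene of the 23 that did not also pass between osteoarthritic and healthy cartilage (adjusted p = 0.0708). HA-treated minus coacervate-treated, which shares the HA-treated libraries, was between 0.33 and 2.49 on the log2 scale for the 21 rises, and the smallest adjusted p among them was 0.101. The largest of these was Ccl7 with 2.49 and the smallest was Dpt with 0.33.

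**Figure D5:**
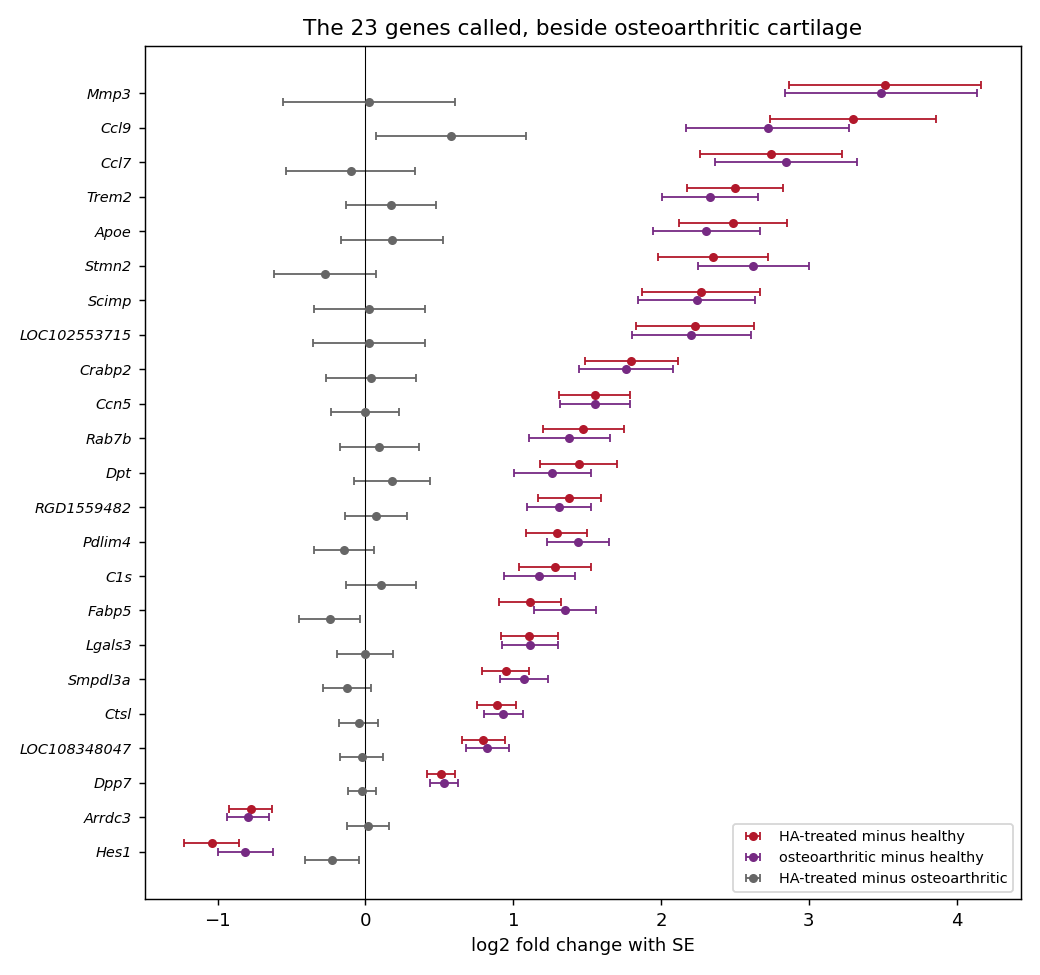
The 23 genes are on the y axis and the log2 fold change with its SE is on the x axis; for each gene the points from the top are HA-treated minus healthy, osteoarthritic minus healthy and HA-treated minus osteoarthritic. The red and purple points of a gene differ by at most 0.58, and the grey points lie between -0.27 and 0.58.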

How the data were processed

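Total RNA of rat knee cartilage with a RIN above 7 was enriched with oligo(dT), made into dUTP libraries and sequenced as paired ends on a NovaSeq, per the labels' protocols. The authors deposited 1 table of read counts and FPKM values per gene for 16 libraries in 4 groups of 4. Per the submitters' processing notes the build was rn6, and the tools listed there are StringTie 2.1.6, HISAT2 2.2.1, edgeR, DESeq2 and cutadapt 1.9; the counting tool, its strand setting and the annotation are not given in the sources used here. The deposited FPKM values were used for the filter on low values, for levels of cartilage genes and, as log2(FPKM + 1) or log2(FPKM + 0.1), for limma.

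The deposited counts were fitted with edgeR 4.0.16 (R 4.3.3) by the quasi-likelihood test with TMM scaling, with group means over all 16 libraries and the contrast of HA-treated minus healthy, on genes reaching 1 FPKM in 4 or more libraries. P-values were adjusted by Benjamini-Hochberg over all 14337 genes. Normalised CPM are counts scaled to TMM library sizes. A prior count of 2 was used for the log2 values behind the principal components and the correlations between libraries. The log2 fold changes are those of the edgeR fit at its default prior count. DESeq2 1.42.0 and limma 3.58.1 were alternatives, and there were 31 alternatives in all. The code was tested on simulated data. Counts are fragments of PCR-amplified libraries without molecular identifiers.

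The genes described and the 56 gene lists were chosen with earlier results of these data known. Of the 1074 list symbols 1029 were in the table. Named were the 12 largest rises and falls by log2 fold change that passed, without overlap and with 5 FPKM or more on average in whichever group was higher (where fewer than 3 genes passed one way, the 3 of lowest p), up to 4 members of each list with a call, the 5 markers and 10 cartilage genes. This gave 53 genes, and 82 more were named after their values were seen, among them those called only in the fit of 8 libraries. Genes among the 23 called that the rule left out were also added then, namely Smpdl3a, Stmn2, Dpp7, Fabp5 and those with unnamed symbols. Promoters came from RefSeq (build GRCr8), matched by symbol, and no other coordinates of that build were used.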

Additional observations from a re-analysis of the deposited data

Results flagged for a closer look

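In 17 of 284 groups of 4 libraries, 1 library lay far from the other 3 by Dixon's criterion, which chance meets in about 1 group in 20. HA replicate 2 was the high one for Scimp at 21.3, Ctsl at 308, Lipa (lysosomal acid lipase) at 121, S100a6 at 92.9 and Cebpb at 5.26 normalised CPM. HA replicate 3 was the high one for Col2a1 at 3069 normalised CPM, and HA replicate 4 for Adipoq at 65.2, Mb at 234 and Tpm2, a muscle tropomyosin, at 237.

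Among healthy libraries, replicate 3 was the high one for Vtn at 92.8 normalised CPM, where the other 3 had 2.61, 2.61 and 1.71. Vtn encodes vitronectin, a protein of blood plasma made mainly in liver. Replicate 3 was also high for Sox9 at 12.8, Col1a1 at 12432 and Col15a1 at 40.7. Healthy replicate 4 was the high one for Ccl7 at 1.26, Tfpi at 102, Heyl at 18.8 and Adamts15 at 6.12 normalised CPM.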

How the results depend on the processing

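All 23 genes called kept their direction under each of the 31 alternatives in which they were tested. Sign changes were seen only in uncalled genes, for Sox9 in 1 setting and for Col10a1 and Il1b in 2 each. The count of 23 was 19 to 25 with other scalings, haemoglobin left out, filterByExpr, robust dispersion, a filter at an FPKM of 5 or a 1.5-fold minimum. It was 7 without a filter on low values, 159 with DESeq2 (all 23 among them, with 14 adjusted p-values not given), 14 and 15 with limma at pseudocounts of 1 and 0.1, 3 with voom, 390 with the 8 libraries alone, and 94 without osteoarthritic replicates 2 and 3. Leaving out 1 library gave 0 to 37 calls, and the 3 fits with 0 calls (without HA replicate 3, healthy replicate 2 or healthy replicate 4) had 823, 1125 and 949 genes at an unadjusted p under 0.05. The count of 390 was 106 to 480 with 1 library left out, an alternative added after seeing the data. The cause of these shifts was not tested.

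With the replicate number as a block the fit of 16 libraries called 0 genes (1039 at an unadjusted p under 0.05, smallest adjusted p 0.0529), and the fit of 8 called 323, 22 of the 23 among them. Deviations of same-numbered HA-treated and healthy libraries correlated at 0.0453, -0.0106, 0.0299 and -0.0948, and replicate 1 alone matched its own number best. With 4 libraries a group, these values cannot settle whether the numbers pair the libraries.

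HA-treated against osteoarthritic cartilage gave 0 calls, 8 with DESeq2, 1 with limma at either pseudocount, 1 with voom, and 0 to 1 with 1 library left out. Over the single genes named, 3817 values kept their side of the threshold, 286 lost it and 286 gained it.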

Other observations

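Genes outside the gene lists that passed in the fit of the 8 libraries and not in that of 16 are given here. They were chosen after their values were seen, for large changes among genes whose HA-treated and healthy values did not overlap. Among the rises, C1qtnf3, a secreted relative of adiponectin, averaged 10.8 ± 1.18 normalised CPM in HA-treated cartilage and 3.51 ± 1.20 in healthy cartilage (SD, n = 4 each), a log2 fold change of 1.63 ± 0.37. Angptl1, an angiopoietin-like secreted protein, averaged 31.9 ± 4.0 normalised CPM in HA-treated cartilage and 11.7 ± 1.54 in healthy cartilage (1.45 ± 0.29, adjusted p = 0.0657 in the fit of 16 and 0.00204 in that of 8). Slc26a11, an anion transporter, averaged 11.5 ± 4.05 normalised CPM in HA-treated cartilage and 3.82 ± 0.255 in healthy cartilage (1.59 ± 0.42). Ssc5d, a scavenger receptor family protein, and Fbln7, a fibulin of the matrix, had 1.55 ± 0.42 and 1.48 ± 0.35 on the log2 scale. In all 5 the HA-treated values lay above the healthy ones, which the choice required.

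Among the falls, Cebpb, a transcription factor of fat cells and inflammation, averaged 3.17 ± 1.41 normalised CPM in HA-treated cartilage and 10.3 ± 4.12 in healthy cartilage (SD, n = 4 each), a log2 fold change of -1.70 ± 0.40. Errfi1, a feedback inhibitor of the EGF receptor, averaged 66.4 ± 19.5 normalised CPM in HA-treated cartilage and 168 ± 37.8 in healthy cartilage (-1.34 ± 0.39). Id4, an inhibitor of DNA binding, and Nnat, or neuronatin, had -1.26 ± 0.28 and -1.46 ± 0.37. Trdn and Hspb7, both known from muscle, had -1.12 ± 0.34 and -1.11 ± 0.37. Apold1, a gene of blood vessel lining cells, averaged 14.2 ± 2.60 normalised CPM in HA-treated cartilage and 30.8 ± 9.17 in healthy cartilage (-1.12 ± 0.28). The groups did not overlap in these 7 genes, which the choice required.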
